A study of Mus musculus with 73 samples.

Results

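The cells described here are the ends of a ranking of 73 single inner hair cells by 5 stress-response genes. For each cell, the levels of Fos, Jun, Egr1, Hspa1a and Hspa1b were averaged as log2(CPM + 1), where CPM is the count scaled by the library total. The 20 cells with the highest mean are called high-score cells, the 20 with the lowest mean low-score cells, and the other 33 the between cells. Both ends together hold 40 of the 73 cells. All of them are inner hair cells, the sensory cells that pass sound to the auditory nerve, picked by hand from mouse cochleae at postnatal day 14. The genotype was Atoh1Cre/+ with Casz1flox/flox, so that Cre made in developing hair cells deleted the zinc-finger factor Casz1 and switched on the 3xGFP reporter Ai47. Fgf8-Flpo/+, with Flp recombinase made where Fgf8 is active, added tdTomato, and only doubly coloured cells were taken. High-score, low-score and between cells share all of these alleles, and no control cells were analysed here. The picked cells were digested out of the tissue with papain for 20 min at 37 °C and then with protease and dispase for 20 min at 25 °C. No animal is named in the labels. The cells therefore count as 1 sample without replicates, and all differences below are descriptions with no p-value.

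Fos, Jun and Egr1 are immediate early genes, whose transcription starts within minutes of a stimulus from factors already present in the cell, and whose proteins are themselves transcription factors. Hspa1a and Hspa1b encode the inducible HSP70 chaperones, which are nearly silent at rest and are switched on by heat shock factor 1 when proteins unfold. Dissociating a tissue with warm enzymes is a known trigger of both groups, as are noise and ototoxic drugs in the cochlea.

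The promoters of the ranking genes and of one gene of the opposite side are shown because they carry the elements these responses are known for. In the 150 bases before the start of Fos (chr12:85473740-85473889, plus strand, GRCm38.p6), capitals mark the cyclic AMP response core TGACGT at -66 to -61 and the TATAAA box at -33 to -28.
Fos: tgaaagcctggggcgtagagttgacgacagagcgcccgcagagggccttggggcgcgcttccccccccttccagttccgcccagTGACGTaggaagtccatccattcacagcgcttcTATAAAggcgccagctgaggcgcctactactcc
In the 250 bases before Hspa1a (chr17:34972157-34972406) and Hspa1b (chr17:34959239-34959488), both on the minus strand, capitals mark an inverted repeat of the heat shock element, searched as GAANNTTC and found at -104 to -97.
Hspa1a: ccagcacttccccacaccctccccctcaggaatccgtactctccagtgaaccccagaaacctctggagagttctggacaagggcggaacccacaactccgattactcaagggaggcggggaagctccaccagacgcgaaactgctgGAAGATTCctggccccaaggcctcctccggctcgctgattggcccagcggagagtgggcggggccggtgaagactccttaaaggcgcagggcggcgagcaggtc
Hspa1b: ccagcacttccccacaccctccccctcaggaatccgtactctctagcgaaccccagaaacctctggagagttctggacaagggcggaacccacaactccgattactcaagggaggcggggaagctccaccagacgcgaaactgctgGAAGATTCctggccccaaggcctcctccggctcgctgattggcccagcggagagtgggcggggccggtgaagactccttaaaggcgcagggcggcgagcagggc
In the 250 bases before Nfkbia (chr12:55492648-55492897, minus strand), which encodes the inhibitor of NF-kB and is itself a target of that factor, capitals mark a match to the kappaB consensus on the opposite strand at -29 to -20.
Nfkbia: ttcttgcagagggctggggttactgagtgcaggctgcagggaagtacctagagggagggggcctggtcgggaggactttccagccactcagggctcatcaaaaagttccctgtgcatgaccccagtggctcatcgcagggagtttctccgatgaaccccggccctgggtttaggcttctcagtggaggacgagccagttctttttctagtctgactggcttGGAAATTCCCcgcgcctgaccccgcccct
All 4 are reference sequences from RefSeq, with positions counted back from the first base of the gene. Among 32851 promoter windows of 250 bases, searched on both strands, 6.69% hold GAANNTTC, 6.47% TGACGT, 12.4% TATAAA and 3.90% the kappaB consensus. A match describes letters only and shows no binding.

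The Hspa1a and Hspa1b windows differ at 3 bases. Their transcripts (2967 and 2803 bases) are also near-copies: 62.3% of the 50-base stretches of Hspa1b occur in Hspa1a, and 58.8% of those of Hspa1a in Hspa1b. A short read from either gene may thus have been assigned to the other or dropped, and the split between both is uncertain.

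The 5 genes formed the score in different ways. The score ran from 6.15 to 9.63 in the high-score cells (median 7.80) and from 1.59 to 4.03 in the low-score cells (median 3.10). The next cells inward stood at 6.13 and 4.10, so neither boundary falls in a gap. Fos carried 33.1% of the variance of the score, Hspa1b 21.8%, Egr1 19.9%, Hspa1a 19.2% and Jun 5.93%. These values chose the cells, and nothing is read from their difference.

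Fos (chromosome 12, 85473890 to 85477273, plus strand), the AP-1 subunit made after a stimulus, was nearly on or off. Its lowest, median and highest levels were 123, 729 and 2560 CPM in the high-score cells, 0, 159 and 787 CPM in the between cells and 0, 0.0872 and 191 CPM in the low-score cells. It reached 10 CPM, the level at which a gene is called on, in 20 of 20, 26 of 33 and 1 of 20 cells. A single low-score cell overlapped the high-score range. Egr1, a zinc-finger factor, had lowest, median and highest levels of 170, 913 and 2842 CPM in high-score, 70.3, 827 and 2792 CPM in between and 0, 77.3 and 1069 CPM in low-score cells. It was on in 14 of 20 low-score cells and in every other cell, and the low-score range overlapped both others.

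Jun (chromosome 4, 95049034 to 95052222, minus strand), the partner of Fos, was on in every cell. It had lowest, median and highest levels of 608, 1442 and 3449 CPM in the high-score cells and 144, 508 and 1662 CPM in the low-score cells, with a median of 918 CPM between, and the sides overlapped. The HSP70 genes were confined almost wholly to the high end. Hspa1a (chromosome 17, 34969190 to 34972156, minus strand) had lowest, median and highest levels of 0, 33.5 and 352 CPM in high-score cells and reached 10 CPM in 12 of them. Its maximum was 0.519 CPM in the between cells and 0.307 CPM in the low-score cells, so 0 of 20 low-score cells reached 10 CPM. Hspa1a helped to choose these cells, so its count there follows in part from the ranking and no interval is given. Hspa1b (chromosome 17, 34956436 to 34959238, minus strand) had lowest, median and highest levels of 0, 69.3 and 865 CPM in high-score cells. It reached 10 CPM in 14 high-score, 3 between and 0 low-score cells.

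**Figure D1:**
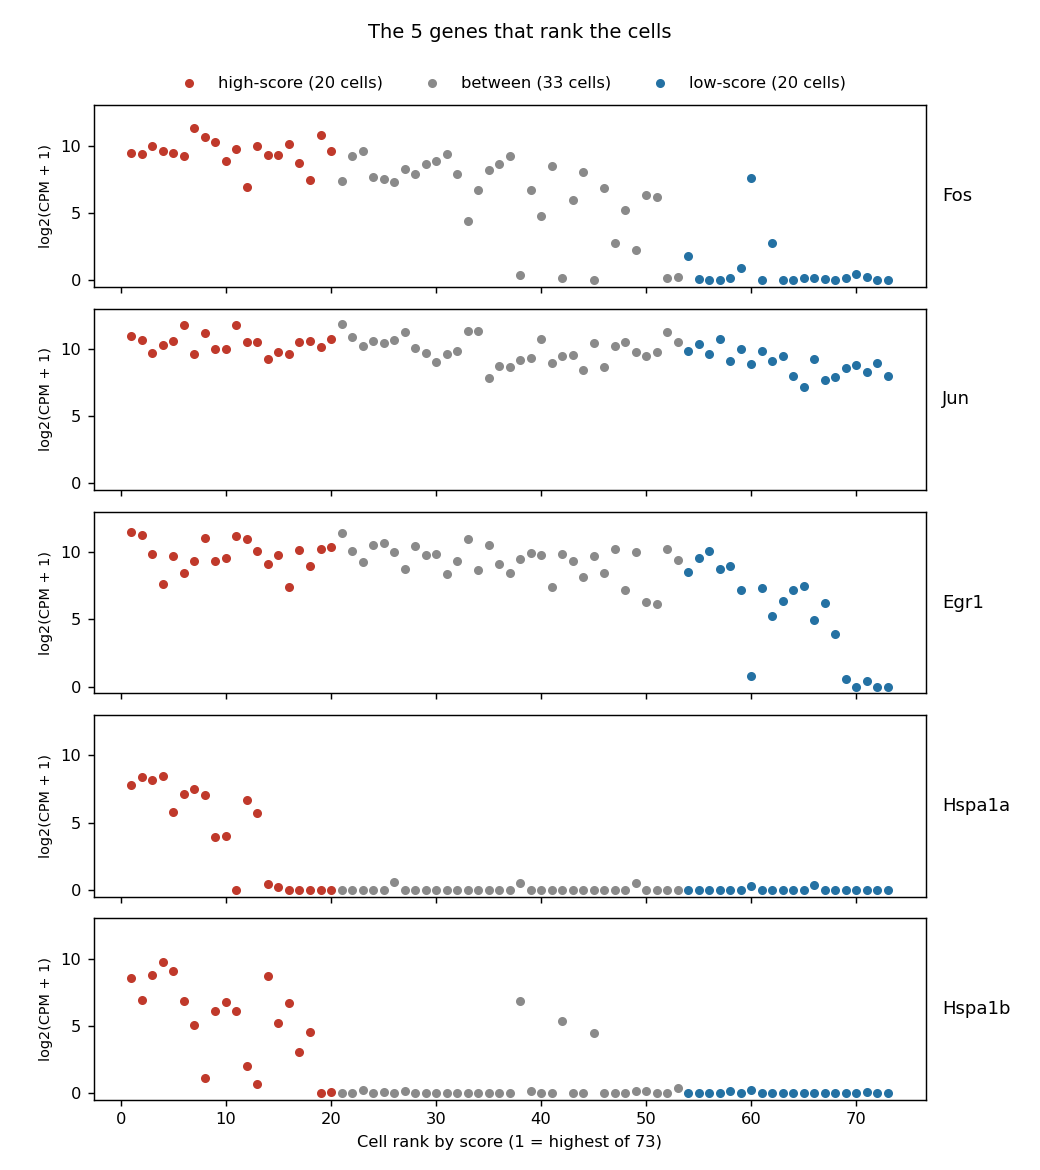
Level of each of the 5 ranking genes, as log2(CPM + 1), in all 73 cells ordered by score, 1 point per cell. Jun is on throughout, Egr1 ends among the lowest ranks, Fos fades through the between cells, and Hspa1a and Hspa1b at 10 CPM or more stand mainly among the 20 high-score cells.

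Over all 73 cells, the Spearman correlation was 0.68 between Hspa1a and Hspa1b, 0.61 between Jun and Egr1 and 0.49 between Fos and Hspa1b. The mean of Fos, Jun and Egr1 and that of the HSP70 pair correlated at 0.48 over 73 cells, and at -0.02 within the high-score, -0.34 within the between and -0.04 within the low-score cells. These describe cells whose libraries share a normalization. The sides were cut from the sum of both means, which lowers the correlation within them, so nothing is read from its loss there. Of the 20 high-score cells, 9 had both HSP70 genes at 10 CPM or more, 8 had one and 3 had neither. Ranking by Fos, Jun and Egr1 alone keeps 15 high-score and 18 low-score cells. Ranking by the HSP70 pair alone keeps 17 and 8, and there most cells tie at or near 0 at the low end.

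High-score and low-score cells were both hair cells by their markers and differed in library properties. Myo7a, Pou4f3 and Slc17a8, markers of hair cells and of inner hair cells, reached 10 CPM in every cell, and a median of 17, 18 and 18.5 of 20 general hair cell genes did so in high-score, between and low-score cells. Total counts had medians of 15530712, 16709925 and 18768548 over a range of 11027945 to 37183702, and the median number of genes with a count was 8821.5, 8439.0 and 8208.0. Casz1 reads had medians of 63.8, 39.9 and 34.5 CPM. The labels do not say which exons were removed, so these reads do not check the deletion. Summed markers of other cell types had medians of 5595 and 5997 CPM for supporting cells (high-score and low-score), 433 and 585 CPM for neurons, 9.23 and 73.3 CPM for glia, 13.96 and 0.169 CPM for mesenchyme, and 33.7 and 55.8 CPM for stria vascularis. Immune, blood and endothelial sums had medians under 2 CPM in both, and of the compared genes in these lists, Sox10 of glia alone passed 1 in size. A marker seen in few cells (fewer than 10 of the 73) stood at 50 CPM or more in 7 of 20 high-score, 15 of 33 between and 5 of 20 low-score cells. A single low-score library held 6703 CPM of immune markers. None of these differences was tested as a source of what follows.

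Mitochondrial transcripts took a larger share of counts in the high-score cells. The lowest, median and highest shares were 4.93%, 8.99% and 12.9% in high-score cells, 4.09%, 5.82% and 13.0% in between cells, and 1.81%, 5.40% and 12.3% in low-score cells. Most high-score cells lay above most low-score cells, but the ranges overlapped across most of their width. The means were 8.998% ± 2.47 (SD over 20 cells) and 5.40% ± 2.16 (SD over 20 cells). The medians differed by 3.58 percentage points.

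Mitochondrial ribosomal RNAs differed more than the mRNAs. Median shares of the rRNAs were 4.40%, 2.19% and 1.43% in high-score, between and low-score cells, and those of the mRNAs were 4.67%, 3.82% and 3.31%. All 11 compared mitochondrial mRNAs, which encode subunits of the respiratory chain, were higher in the high-score cells, against 55.5% of all genes compared. Their differences were 0.20 to 0.60 on the log2 scale, with a median of 0.43, and 0 reached 1. The largest were mt-Nd5 (0.60), mt-Nd6 (0.55) and mt-Nd2 (0.55), all subunits of complex I, and the smallest mt-Atp6 (0.20), of the ATP synthase. Nuclear genes for the same complexes stood on the other side: of 28 compared, 4 were higher, and their median difference was -0.34.

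Within the 33 between cells, which neither end of the contrast used, the mitochondrial share did not follow the score. The Spearman correlation was 0.48 over 73 cells and 0.05 over these 33, and for the rRNA share 0.55 and 0.10. These 33 cells were cut by the score, which lowers any correlation within them, so nothing is read from its loss. Within the high-score cells, the share also went with Slc26a5, the outer hair cell motor gene described next. The 14 high-score cells with Slc26a5 under 10 CPM had a median share of 9.20%, and the 6 with more had 6.25%, near the 5.40% of the 18 low-score cells with Slc26a5 at 10 CPM or more. The 2 low-score cells with Slc26a5 under 10 CPM went the other way, with a median of 4.86%. Among cells with Slc26a5 at 10 CPM or more, a grouping chosen after the values were seen, the difference of medians between the sides was 0.843 percentage points. With Slc26a5 as a covariate, the median difference of the mitochondrial mRNAs was 0.53, against 0.43 without it. What the score and what the Slc26a5 state each contribute cannot be told apart.

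**Figure D2:**
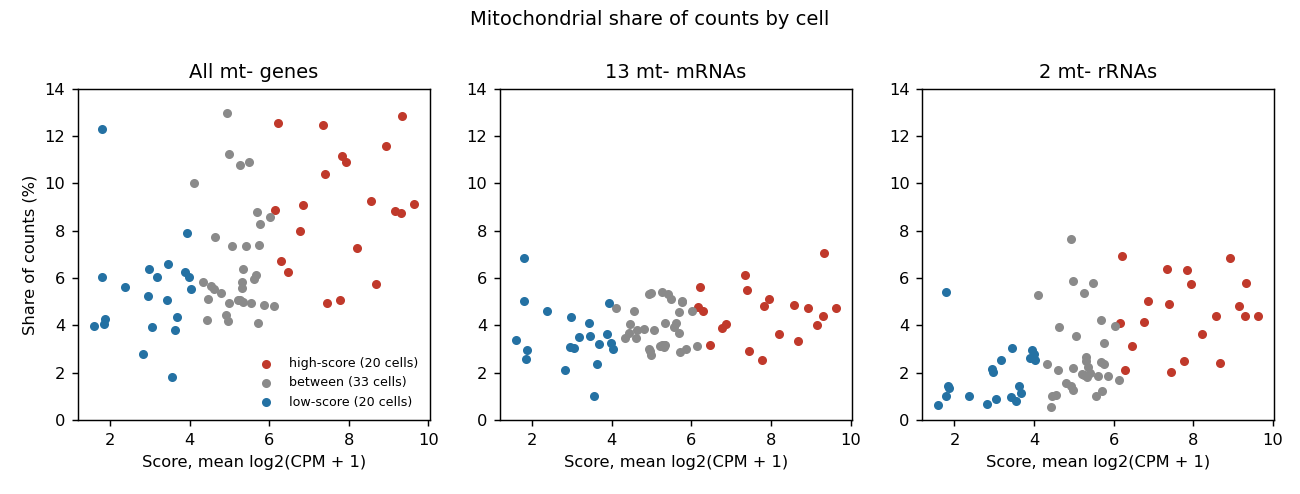
Share of counts from all mitochondrial genes, the 13 mitochondrial mRNAs and the 2 mitochondrial rRNAs (percent) against the score, 1 point per cell. Red high-score cells have the higher median (8.99% against 5.40% for all mitochondrial genes), and the grey between cells, from 4.09% to 13.0%, span nearly the whole range.

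Beyond the ranking genes, outer hair cell and NF-kB genes had the lowest list medians among the stress, energy and hair cell lists and inner hair cell genes the highest. Across the 8614 genes whose mean reached 10 CPM, the difference of mean log2(CPM + 1) was 1 or more in 1611 (18.7%) and -1 or less in 939 (10.9%). With total counts and genes per library as covariates, 1564 and 1697 passed, so the excess of higher genes does not hold there. For 0 genes (0%) did every high-score cell exceed every low-score cell, and for 0 (0%) the reverse. The median over all genes was 0.13. A difference on this scale is a fold only for genes on in nearly all cells. Where many cells stood at 0, it mostly counts in how many cells the gene was on.

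Slc26a5 and Atp2a3, genes by which outer and inner hair cells are told apart, stood among the 15 lowest and the 15 highest differences named. Slc26a5 (chromosome 5, 21810655 to 21865604, minus strand) encodes prestin, the membrane motor that drives outer hair cell length changes. Its lowest, median and highest levels were 0, 0.252 and 75.4 CPM in high-score cells and 0.115, 245 and 743 CPM in low-score cells, and the between cells had a median of 128 CPM. It reached 10 CPM in 6 of 20 high-score cells (30%, exact 95% Clopper-Pearson interval 11.9 to 54.3), 27 of 33 between cells (81.8%, 64.5 to 93.0) and 18 of 20 low-score cells (90%, 68.3 to 98.8). These intervals, here and below, cover counting error only. They take cells as independent draws, although the cells were chosen by rank and their animals are unknown. Slc26a5, Cxcl10 and Id1 are also among the genes with the largest differences, so the intervals test no difference. In 15 low-score cells it exceeded every high-score cell, and the mean log2 level was 5.20 lower in the high-score cells (1.93 ± 2.40 against 7.13 ± 2.45, SD over 20 cells each).

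Calb1, a calcium buffer, differed most of the genes named. It stood at 0, 0.563 and 2354 CPM (lowest, median and highest) in high-score cells and at 0.115, 1757 and 6768 CPM in low-score cells. The sides overlapped fully at the bottom, since 15 high-score and 5 low-score cells were under 10 CPM. Atp2a3 (chromosome 11, 72961169 to 72993044, plus strand), a calcium pump of the endoplasmic reticulum in inner hair cells, had lowest, median and highest levels of 0.158, 1196 and 2248 CPM in high-score and 0, 84.3 and 1172 CPM in low-score cells. In 11 high-score cells it was above every low-score cell.

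As a group, 6 of 10 inner hair cell genes compared were higher by 1 or more and 2 lower, with a median of 1.11. Of 10 outer hair cell genes, 6 were lower and 1 higher, with a median of -2.01. Over all genes, 18.7% were higher and 10.9% lower. Slc7a14, a membrane transporter, was higher by 3.07 (medians 254 and 79.7 CPM). Tbx2, the transcription factor that sets inner against outer hair cell fate, was higher by 2.15. Its lowest, median and highest levels were 20.9, 193 and 464 CPM in high-score and 0, 76.6 and 229 CPM in low-score cells, and it was on in all 20 high-score cells and 15 low-score cells. Calb2, another calcium buffer, was higher by 1.15, Shtn1 by 1.30 and Dnajc5b, a vesicle co-chaperone, by 1.07. Gata3 (0.93) and the glutamate transporter Slc17a8 (0.37) stayed under 1.

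A pair of inner hair cell genes went the other way. Fgf8, a secreted growth factor whose Flpo allele marked the cells, was lower by 2.05 in high-score cells (medians 17.2 and 50.98 CPM). Rprm was lower by 2.54 and reached 10 CPM in 0 of 20 high-score cells (exact interval up to 16.8%) and in 7 of 20 low-score cells. On the outer hair cell side, Aqp11, an aquaporin, was lower by 4.89 and Ocm, a calcium-binding protein, by 3.60. Ocm had lowest, median and highest levels of 0.234, 578 and 3880 CPM in high-score and 0, 3724 and 16888 CPM in low-score cells. Chrna10 was lower by 2.54, Sri by 2.33 and Lbh by 1.68, while Lmod3 was higher by 1.22.

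Ribbon synapse genes and channels had medians near that of all genes or below it. Among 15 ribbon synapse genes, 6 were higher and 0 lower by 1 or more (18.7% and 10.9% of all genes), with a median of 0.07 against 0.13 for all genes. They were Cabp4, a calcium sensor of the release site (2.70), the active zone proteins Erc2 (2.06), Pclo (1.32), Rimbp2 (1.10) and Bsn (1.04), and Nsf, which recycles the fusion machinery (1.13). Among 15 channels and pumps, 3 were higher, near the share of all genes, and 5 lower, with a median of -0.25. Chrna9, a subunit of the efferent acetylcholine receptor, was lower by 4.72, the ATP-gated channel P2rx2 by 3.17, the potassium channel Kcnj13 by 2.75 and the calcium pump Atp2b2 by 2.32. Atp2a3 was joined on the higher side by Kcnab1 (1.36) and Atp1b2 (1.31). With Slc26a5 as a covariate, P2rx2 (1.01), Kcnj13 (0.73), Atp2b2 (0.043), Kcnab1 (-0.65) and Nsf (-0.44) changed sign. Of 20 general hair cell genes, 1 was higher and 3 lower (Lhx3 by 1.52, against Calb1, Chrna9 and Barhl1, the last lower by 1.58).

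**Figure D3:**
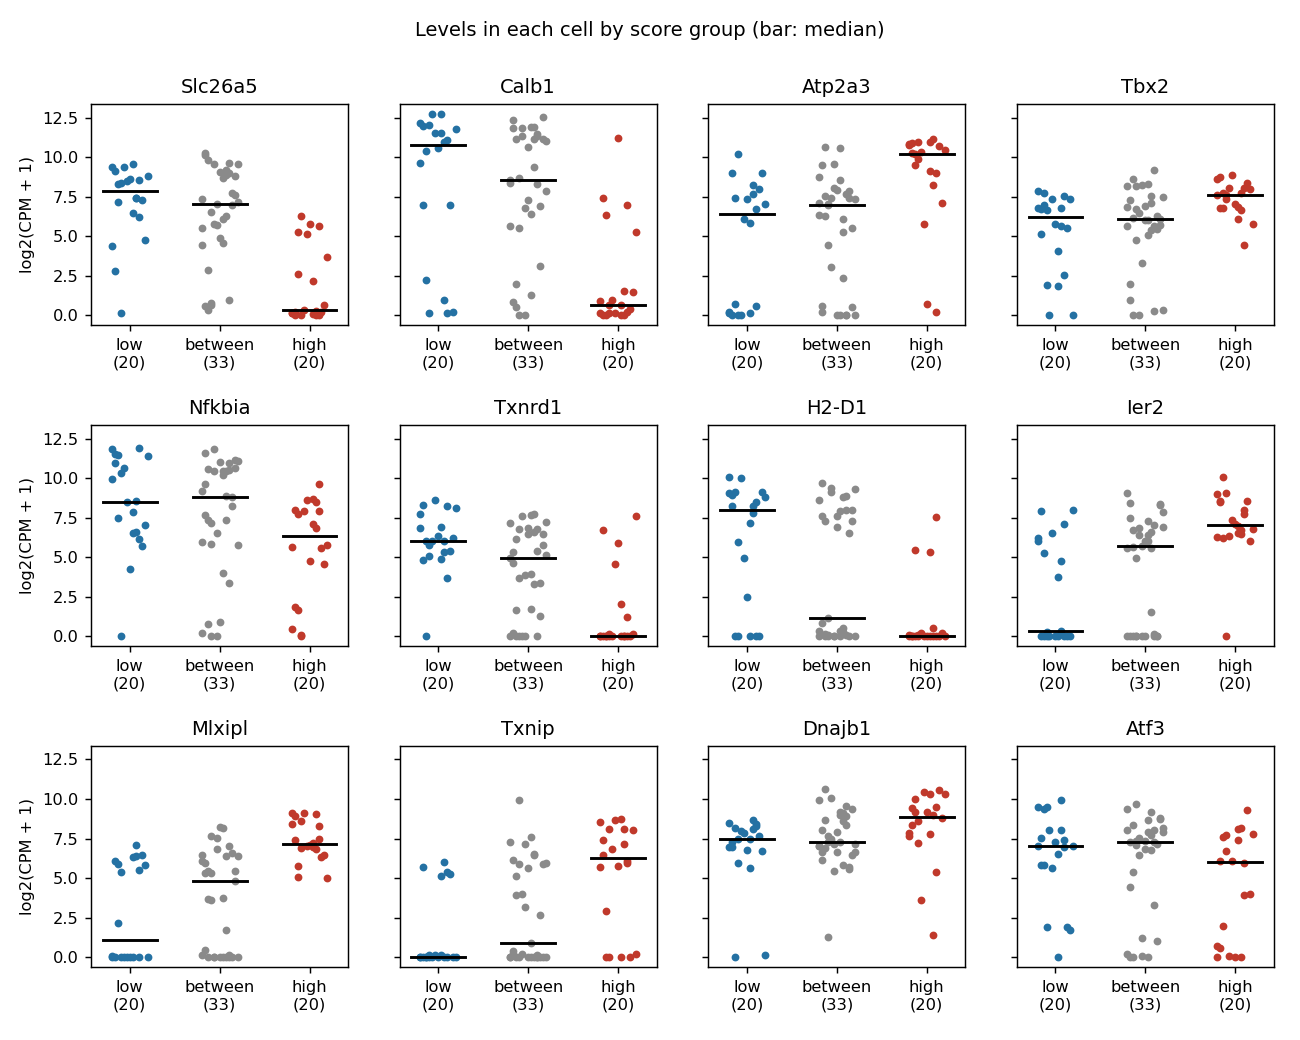
Levels of 12 genes, as log2(CPM + 1), in low-score, between and high-score cells, with 1 point per cell and a bar at the median. Slc26a5 and Calb1 lie at or near 0 in most high-score cells, Atp2a3 in few of them, and between cells resemble low-score cells in the medians of Slc26a5 and Atp2a3.

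The identity lists differed less at a fixed Slc26a5 level. With log2 Slc26a5 as a covariate over the 40 cells, the median of the inner hair cell list was 0.17 and that of the outer hair cell list -0.15. Atp2a3 then stood at -0.28 and Ocm at 1.10. Among the 6 high-score and 18 low-score cells with Slc26a5 at 10 CPM or more, the medians were 0.78 and -0.80. The outer hair cell list includes Slc26a5 itself. Its own value is fixed in advance by the covariate, and it also chose the cells of the smaller grouping. Among the high-score cells, Slc26a5 reached 10 CPM in 1 of the 10 highest and in 5 of the next 10. Slc26a5 itself differs between the sides, so over these 40 cells it and the score cannot be told apart.

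Correlations with the score inside the middle range were near those of all genes. The between cells were cut by the score and span only 4.10 to 6.13, which lowers any correlation within them. In 30 of these 33 cells neither HSP70 gene reached 10 CPM, so the score there rests mostly on the other ranking genes. An absence of grading is therefore not read from these values. Over the 33 between cells, Slc26a5 correlated with the score at 0.08 and Atp2a3 at 0.02. The 1611 genes higher in high-score cells had a median correlation of 0.01 there, with 868 positive, and the 939 lower genes one of 0.02, with 516 positive, against 0.01 for all genes, with 4482 of 8614 positive. Between cells stood nearer to low-score than to high-score cells in the shares of all genes past 1, given last here. For the 15 highest genes named, the median difference was 3.18 between high-score and between cells and 0.85 between the latter and low-score cells. For the 15 lowest it was -3.28 and -0.86. These pairs of differences share the between cells. The 15 genes on each side were also chosen by their difference and by being on in the higher side, so nothing is read from them. Against between cells, 15% of all genes were higher by 1 or more in high-score cells and 8.82% lower. Between cells in turn were higher than low-score cells in 8.64% of genes and lower in 7.05%.

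**Figure D4:**
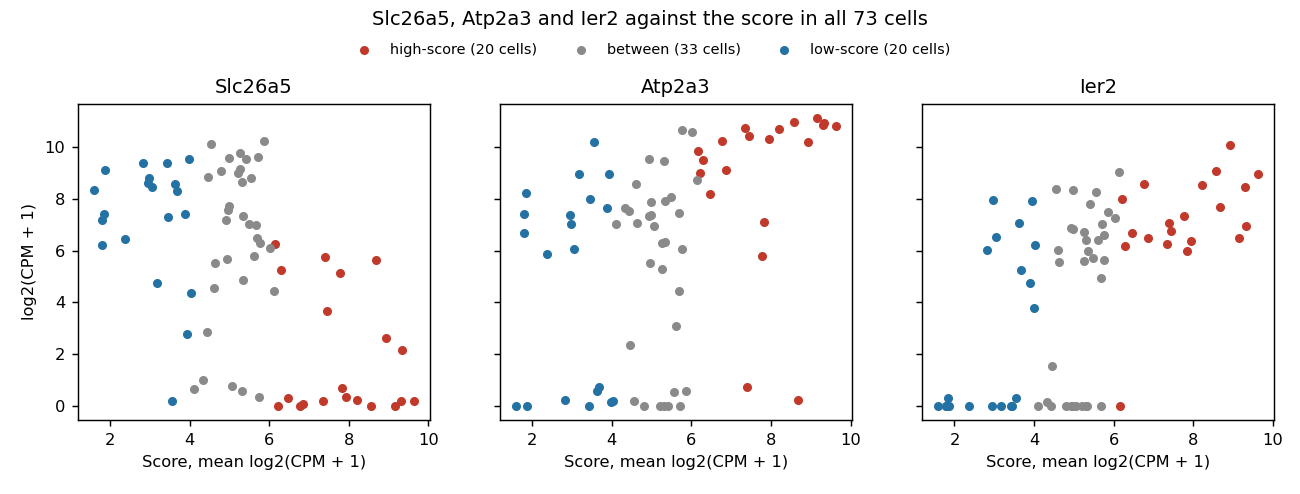
Slc26a5, Atp2a3 and Ier2, as log2(CPM + 1), against the score, 1 point per cell. Slc26a5 is low in most red high-score cells. Over the grey between cells its Spearman correlation with the score was 0.08, and that of Ier2 was 0.39. The between cells span a narrow range of the score, which lowers such correlations.

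Immediate early genes other than the ranking genes did not move as one. Of 6 other AP-1 members compared, 1 was higher and 2 lower by 1 or more (18.7% and 10.9% of all genes), with a median of 0.00. Fosb, a close relative of Fos, was higher by 2.02, with lowest, median and highest levels of 1.51, 112 and 844 CPM in high-score and 0, 50.9 and 280 CPM in low-score cells. Junb (0.17) and Jund (0.39) stood close to the median of all genes. Atf3, a stress-induced repressor, was lower by 1.74 (4.61 ± 3.38 against 6.35 ± 2.85, SD over 20 cells each) and Maff by 2.01. The sides overlapped widely for Atf3, at 0 to 628 and 0 to 984 CPM. With Slc26a5 as a covariate, Fosb stood at 0.84, Atf3 at -1.31 and Maff at -0.09. With the mitochondrial share as one, they stood at 2.05, -0.17 and -0.73.

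Among 8 EGR, NR4A and KLF factors, 1 was higher and 3 lower (18.7% and 10.9% of all genes), with a median of -0.50. Klf4 was on in 7 high-score and 0 low-score cells, while Klf6 was lower by 1.82, Klf9 by 1.40 and Myc, counted with them, by 1.05. Nr4a1, a nuclear receptor that is often induced with Fos, stood at 0.78 and reached 10 CPM in 4 and 1 cells. With Slc26a5 as a covariate, Klf4 stood at 2.40, Klf6 at -1.21, Klf9 at -0.20 and Myc at -0.20.

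Early effectors and feedback genes had a median of -0.31. Of 19 compared, 4 were higher, near the share of all genes (18.7%), and 4 lower (10.9% of all genes). Ier2 (chromosome 8, 84661331 to 84662852, minus strand), a nuclear early response protein, was higher by 4.29. Its lowest, median and highest levels were 0, 129 and 1096 CPM in high-score, 0.230 at the median in low-score cells, and at most 249 CPM there. It was on in 19 high-score and 9 low-score cells, and its correlation with the score over the between cells was 0.39. Gadd45g (1.74), Homer1 (1.69) and Ccn1 (1.35) were higher too. Gadd45a, of the same growth arrest family as Gadd45g, was lower by 3.12 (medians 2.37 and 88.4 CPM), Gadd45b by 1.62, and the growth inhibitor Btg1 by 1.08 and the kinase Plk2 by 1.01. With Slc26a5 as a covariate, Ier2 stood at 3.60, Gadd45g at 1.72, Homer1 at 0.61 and Ccn1 at -0.85. Gadd45a then stood at -0.85, Gadd45b at -1.23, Btg1 at -0.73 and Plk2 at -0.12. Dusp1 (0.74) and Zfp36 (0.65), which shut off kinase signals and short-lived mRNAs, stayed under 1. Over the between cells, Btg2 (0.52), Dusp6 (0.36), Dusp1 (0.33) and Gadd45b (0.30) also correlated with the score, as did Fosb (0.33). Gadd45a stood at -0.33 there, and the median of this list was 0.11. Of all 8614 genes, 437 were at 0.3 or more and 307 at -0.3 or less.

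Heat shock genes beyond the HSP70 pair differed little. Of 31 compared, 4 were higher and 1 lower by 1 or more, against 18.7% and 10.9% of all genes. Their median was 0.18, near the 0.13 of all genes. Dnajb1, the co-chaperone that works with HSP70 and is among the classic targets of heat shock factor 1, was higher by 1.47. It had lowest, median and highest levels of 1.69, 469 and 1515 CPM in high-score and 0, 176 and 414 CPM in low-score cells, and 11 high-score cells were above every low-score cell. Dnaja4 (1.40), Hsf2 (1.07) and Dnajc5b, counted above, were the other members past 1 on the higher side, and Hspbp1, which releases nucleotide from HSP70, was lower by 1.25. Dnajc5, the main vesicle co-chaperone, stood just short of that mark.

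The abundant chaperones were level. Hsp90aa1 differed by 0.13 (11.61 ± 0.37 against 11.48 ± 0.42, SD over 20 cells each), Hsp90ab1 by 0.24, Hspa8 by -0.20, Hsph1 by 0.33 and Dnaja1 by -0.31. The co-chaperone Bag3, on in 5 cells of each side, differed by -0.26. GAANNTTC stood in the promoter windows of 6 of 24 heat shock genes with a window (25%), namely Dnaja1, Dnajb6, Dnaja4, Hspd1, Hspe1 and Fkbp4. It stood in 5.95% of all compared genes and in 6.003% of those higher in high-score cells. In these windows, the genes higher in high-score cells thus held the letters about as often as all compared genes did. The sides are named here by their score and not as strong and weak stress response. With this score, the medians of the other early gene and heat shock lists were -0.50 to 0.18. These medians depend on the setting. Ranking by Fos, Jun and Egr1 alone gave 0.58 (AP-1), -0.09 (EGR, NR4A and KLF), 0.34 (early effectors) and 0.13 (heat shock). Ranking by the HSP70 pair alone gave -0.62, -0.36, -0.13 and -0.06. With Slc26a5 as a covariate they were 0.18, -0.05, 0.28 and 0.29.

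Genes of the unfolded protein response of the endoplasmic reticulum had a median of 0.02. Of 25 compared, 4 were higher and 2 lower, near the shares of all genes (18.7% and 10.9%). The sensors Ern1 (1.90) and Atf6 (1.35), the ubiquitin ligase Syvn1 (1.47) and Sdf2l1 (1.31) were higher. Xbp1, the factor that Ern1 activates by splicing, was lower by 1.90 and Herpud1 by 2.00 (medians 125 and 355 CPM). The chaperones Hspa5 (0.55) and Hsp90b1 (0.63), and Atf4 (-0.29) and Ddit3 (0.20) of the integrated stress response, stayed under 1 in size.

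Oxidative stress genes had a median of -0.39, with 2 of 26 higher and 4 lower by 1 or more, against 18.7% and 10.9% of all genes. The median was -0.08 with Slc26a5 as a covariate and -0.06 with the mitochondrial share as one. Txnip (chromosome 3, 96557957 to 96561883, plus strand), which binds and inhibits thioredoxin, was higher by 3.83, with lowest, median and highest levels of 0, 76.9 and 424 CPM in high-score and 0, 0 and 62.4 CPM in low-score cells. Txnrd1 (chromosome 10, 82833951 to 82897712, plus strand), the reductase that keeps thioredoxin active, was lower by 4.60, with 0, 0 and 192 CPM against 0, 63.4 and 385 CPM. Txnip reached 10 CPM in 14 high-score and 5 low-score cells, and Txnrd1 in 4 and 19.

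Further oxidative stress genes past 1 stood on both sides. Gclm, of glutathione synthesis, was lower by 1.5995, Srxn1 by 1.26 and the glutathione peroxidase Gpx2 by 1.10. Gpx2 was on in every cell, with lowest, median and highest levels of 2807, 3988 and 8992 CPM in high-score and 3066, 10636 and 22393 CPM in low-score cells, and 11 low-score cells were above every high-score cell. G6pdx, which makes NADPH, was higher by 1.78. Nfe2l2, the factor that drives many of these genes, stood at 0.98.

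NF-kB genes were the stress group whose median was largest in size, and they were lower. Of 14 subunits, inhibitors and targets, 9 were lower by 1 or more and 2 higher, with a median of -1.85, against 10.9% and 18.7% of all genes. Nfkbia (chromosome 12, 55489410 to 55492647, minus strand) had lowest, median and highest levels of 0, 84.2 and 799 CPM in high-score and 0, 359 and 3855 CPM in low-score cells. In 9 low-score cells it was above every high-score cell, and the rest overlapped. The subunits Relb (-2.38), Nfkb2 (-2.22), Rela (-2.10), Rel (-1.61) and Nfkb1 (-1.61) were all lower, as were the inhibitor Nfkbib (-3.19) and Tnfaip3 (-3.14), an enzyme that ends the signal.

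The chemokine Cxcl10 (chromosome 5, 92346638 to 92348889, minus strand), a target of NF-kB and interferon, was lower by 3.91. It reached 10 CPM in 3 of 20 high-score cells (15%, interval 3.21 to 37.9) and 12 of 20 low-score cells (60%, 36.1 to 80.9), and its highest levels were 54.6 and 1507 CPM. The class I histocompatibility gene H2-D1 (chromosome 17, 35262730 to 35267499, plus strand), which presents peptides to T cells, was on in 3 and 14 cells and lower by 4.94. Its highest level in high-score cells was 187 CPM and its median in low-score cells 257 CPM. The members on the higher side were Nfkbiz (3.04) and the kinase Chuk (2.03).

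The kappaB consensus stood in the windows of 6 of 10 NF-kB genes (60%), namely Nfkbia, Nfkbie, Nfkb2, Rel, Tnfaip3 and Cxcl10. It stood in 5.10% of all compared genes and 6.74% of those lower in high-score cells. The list was made of known NF-kB genes, so the share within it is no finding. The median of the list was -1.13 with the mitochondrial share as a covariate and -0.81 with Slc26a5 as one. It was -1.85 without the low-score library with immune markers. Sox10, a glial marker, was lower by 3.25 as well and reached 10 CPM in 1 high-score and 11 low-score cells. Its part in the NF-kB difference was not tested.

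Genes of p53 and apoptosis gave a median of 0.14, with 2 of 9 higher and 1 lower, near the shares of all genes (18.7% and 10.9%). The survival genes Bcl2l2 (1.31) and Bcl2l1 (1.08) were higher and Trp53, which encodes p53, was lower by 2.19. Its target Cdkn1a stood at -0.97.

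**Figure D5:**
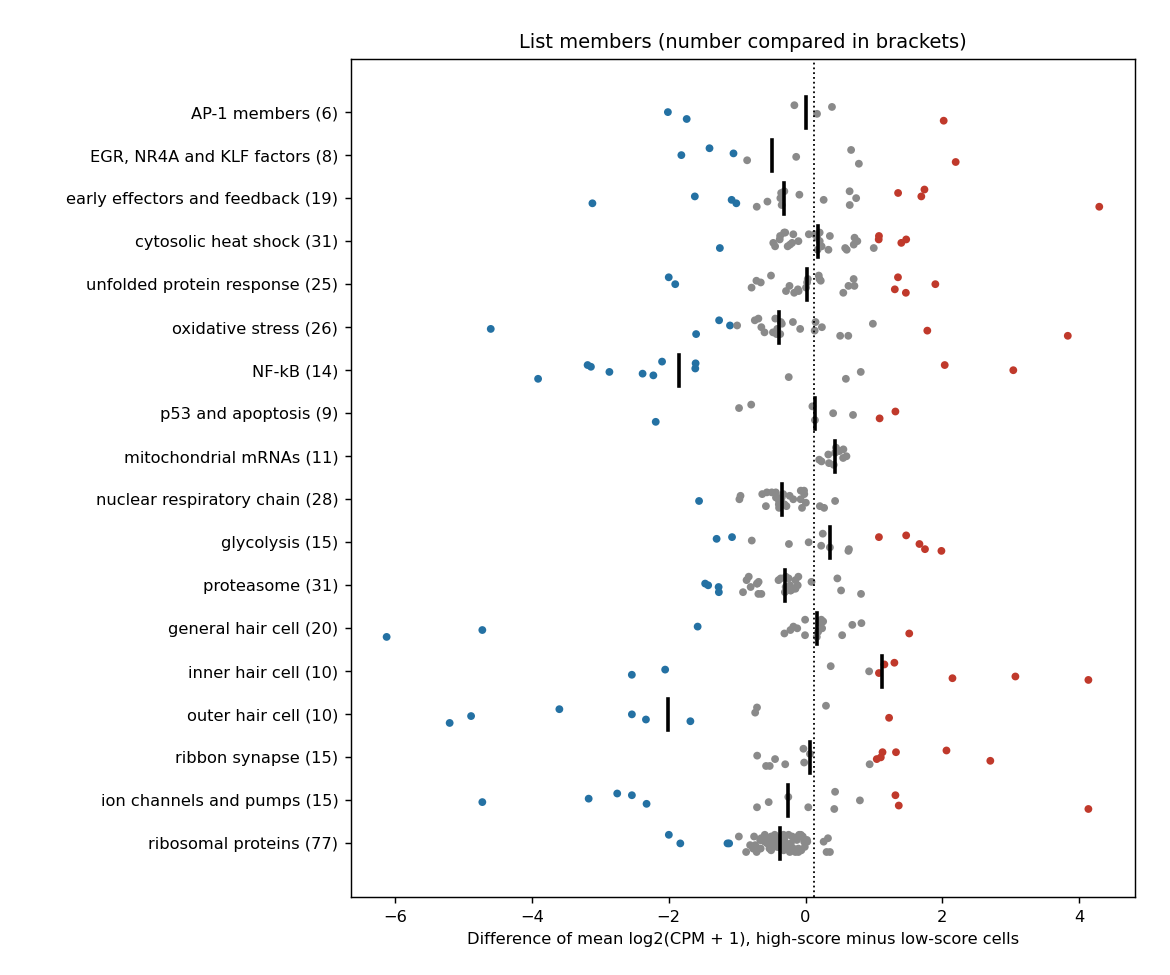
Difference of mean log2(CPM + 1), high-score minus low-score cells, for each compared member of 18 gene lists. Points past 1 in size are red or blue, black bars are list medians and the dotted line is the median of all 8614 genes (0.13). NF-kB (-1.85) and outer hair cell genes (-2.01) lie farthest to the left and inner hair cell genes (1.11) farthest to the right.

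The genes with the largest differences held a mixture of metabolic and signalling genes. Mlxipl (chromosome 5, 135089890 to 135138382, plus strand), a glucose-responsive transcription factor that drives Txnip, was higher by 4.49, the most of all genes compared. Its lowest, median and highest levels were 30.9, 142 and 551 CPM in high-score and 0, 1.74 and 133 CPM in low-score cells. It was on in all 20 high-score and 9 low-score cells, and 11 high-score cells were above every low-score cell. Id1 and Id3, inhibitors of basic helix-loop-helix factors and targets of BMP signalling, were higher by 3.77 and 4.06. Id1 reached 10 CPM in 13 of 20 high-score cells (65%, interval 40.8 to 84.6), 6 of 33 between cells and 1 of 20 low-score cells (5%, 0.127 to 24.9). As Id1 was named for its difference, its intervals test none.

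Others of the 15 highest genes were Ier2, Igfbp5 (4.27), which binds insulin-like growth factors, Ampd2 (4.19), of purine metabolism, Atp2a3, Rabepk (4.12), Ermp1 (4.12), Ripor3 (4.08), Klhl11 (3.98), the oxysterol-binding Osbp2 (3.90) and Txnip. Zmym1 (3.52) closed the list. With Slc26a5 as a covariate, Igfbp5 stood at -0.41 and Osbp2 at 0.60, whereas Ier2 (3.60), Id3 (3.14), Rabepk (3.05) and Txnip (3.01) kept most of their difference. Rabepk also followed the score over the between cells (0.55).

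Among the 15 lowest, Cubn, an endocytic receptor, was lower by 4.86, the lipid flippase Atp8a2 by 4.15 and the peptidase Ecel1 by 3.81. The tight junction gene Ocln was lower by 3.77, Sirt2, a deacetylase, by 3.72 and Pole, of DNA polymerase epsilon, by 3.56. Calb1, Slc26a5, H2-D1, Aqp11, Chrna9, Txnrd1, Cxcl10 and Ocm, given above, were also among them. With Slc26a5 as a covariate, Txnrd1 (-3.25), Ocln (-3.01), Cubn (-2.88), H2-D1 (-2.78) and Sirt2 (-2.47) kept most of their difference, and Calb1 (-1.06), Aqp11 (-0.46) and Pole (-0.37) did not.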

How the data were processed

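Single cells of 1 group were sequenced with the Smart-Seq HT kit, per the labels' protocols, and the authors deposited 1 table of raw counts, a row per gene and a column per cell. The build mm10, featureCounts 2.0.1, HISAT2 2.2.1 and StringTie 2.2.1 are named in the submitters' processing notes. Their settings, the annotation and the use of strand are not given in the sources used here, so overlapping and near-identical genes are uncertain. The kit carries no molecular identifiers, and counts include PCR copies. The row WPRE (0.0161% of counts), a reporter element, was left out, leaving 55291 gene rows. Total counts of 11027945 to 37183702 make 1 count worth 0.0907 to 0.0269 CPM. No pair of libraries was identical.

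CPM were computed from these counts, and the score, the sides and the differences used log2(CPM + 1). A gene was compared at a mean of 10 CPM over the 73 cells, leaving out the 5 ranking genes (8614 genes), and was counted as higher or lower past 1 in size. On means 10 CPM or more in a cell. Cells are not replicates, so no test, count model or p-value was used. Covariates entered by least squares over the 40 cells. The members, the 27 gene lists and the thresholds were chosen with earlier results of these data known. Named genes are the ranking genes, list members and the 15 highest and 15 lowest differences among officially named genes on in at least 10 cells of the higher side. Some genes chosen this way are not reported here. The steps were tested on simulated counts with a fixed shift per gene. That simulation did not imitate genes that are on in only part of the cells, so it does not check their differences. Promoters and gene positions are from RefSeq (GRCm38.p6) and GENCODE, both of the build mm10. Doublets were not searched for in these hand-picked cells. Software was R 4.3.3 with edgeR 4.0.16 (TMM scaling as an alternative), and pandas 2.3.3, numpy 2.4.6, scipy 1.17.1 and matplotlib 3.10.9 under Python 3.11.15.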

Additional observations from a re-analysis of the deposited data

How the results depend on the processing

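No paired analysis was possible because the cells form 1 group and carry no replicate numbers across groups. The number of genes higher in high-score cells (1611) was 399 with a pseudocount of 10 and 1049 with 30 cells a side. The number lower (939) was 280 with a pseudocount of 10, 1697 with total counts and genes per library as covariates, 1612 with 10 cells a side and 495 with 30. Leaving out each of the 40 cells in turn gave 1541 to 1668 and 906 to 1024 genes. The difference of median mitochondrial shares was then 3.44 to 3.73 percentage points. That difference was 0.843 among cells with Slc26a5 at 10 CPM or more, a choice made after seeing the data, as was leaving out the library with immune markers (1668 and 949 genes). With Slc26a5 as a covariate 1864 and 1238 genes passed, of which 937 and 486 also passed without it.

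List medians moved in 7 cases: with Slc26a5 as a covariate to 0.17 (inner hair cell), -0.15 (outer hair cell) and -0.12 (ribosomal proteins), among cells with Slc26a5 to 0.82 (unfolded protein response), without cells holding rare markers of other types to 1.01 (p53 and apoptosis), with 10 cells a side to -1.12 (channels and pumps), and with the mitochondrial share as a covariate to -0.16 (mitochondrial mRNAs). The other 335 values for counts, shares and lists stayed within the spread or within 1.5 times. TMM scaling gave 1659 and 889 genes and a median over all genes of 0.16.

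Among 147 single genes, 26 values changed sign where the difference had been 1 or more in size. Sign changes of smaller differences were not counted. With Slc26a5 as a covariate these were Igfbp5 (-0.41), Atp2a3 (-0.28), Ocm (1.10), Ccn1 (-0.85), Dnajc5b (-0.17), Shtn1 (-0.87), Fgf8 (0.24), Lbh (0.42), Nsf (-0.44), P2rx2 (1.01), Kcnj13 (0.73), Atp2b2 (0.043) and Kcnab1 (-0.65). With library totals and genes they were Ccn1 (-0.64), Atf6 (-0.054), Shtn1 (-0.53), Ldha (-0.40) and Tpi1 (-0.34). Ranking by the HSP70 pair alone gave Gadd45g (-0.16), Dnaja4 (-0.13) and Pfkm (-0.43). Among cells with Slc26a5, Ccn1 stood at -0.27, Shtn1 at -0.49 and Atp1b2 at -0.63, and with 10 cells a side Rel at 0.013. Psma4 stood at 0.25 with the mitochondrial share as a covariate. The causes were not tested. With 20 cells a side from an unknown number of animals, differences between cells and between animals cannot be told apart. Levels far under 1 CPM rest on few counts.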

Other observations

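Glycolytic genes, which supply energy without oxygen, gave mixed values. Of 15 glycolytic genes compared, 5 were higher by 1 or more in high-score cells and 2 lower, with a median of 0.36, against 18.7% higher, 10.9% lower and a median of 0.13 over all genes. Hk1, which traps glucose in the cell, was higher by 1.99 (medians 48.8 and 1.46 CPM), Pfkl, of the committed step, by 1.75 and Ldha, which makes lactate, by 1.67. Tpi1 (1.47) and Pfkm (1.07) were the other higher members. With total counts and genes per library as covariates, Ldha stood at -0.40 and Tpi1 at -0.34, and ranking by the HSP70 pair alone gave Pfkm -0.43. Eno2 was lower by 1.30 and Ldhb, the other lactate dehydrogenase chain, by 1.07. The sides overlapped for all of them.

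Genes for protein synthesis and breakdown were slightly lower in the high-score cells. Over all genes compared, 55.5% were above 0 and 10.9% lower by 1 or more. Of 77 ribosomal protein genes, 6 were above 0 and the median was -0.37, with 4 lower by 1 or more, Rpl22 (-1.998), Rps4l (-1.83), Rpl10a (-1.14) and Rps20 (-1.12). They took 1.64% of counts in high-score and 2.02% in low-score cells (medians). Of 31 proteasome genes, 4 were above 0 and the median was -0.30, with Psmd13 (-1.47), Psmc2 (-1.42), Psmd4 (-1.27) and Psma4 (-1.27) past 1. Among nuclear genes of the respiratory chain, Uqcrc2, of complex III, was lower by 1.56.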
